A study of Mus musculus with 22 samples.

Results

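Neuropeptide expression in the inner retina was followed through the mRNA of 8 precursor genes, Tac1, Tac2, Sst, Npy, Vip, Penk, Cck and Vgf. The genes were chosen by name, as peptide precursors known from amacrine, bipolar and ganglion cells, and compared between KO and WT. They were found by Ensembl identifier among the 53801 genes of the bulk tables and by symbol among the 19324 genes of the single-cell matrix, and all 8 were present in both. All 8 passed the filter on low counts in bulk retina, and 7 of 8 passed it in bulk RPE, where Sst did not.

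Amacrine cells shape the signal that bipolar cells pass to ganglion cells, and many of them release a peptide beside GABA or glycine. Each peptide is cut from a larger precursor inside dense-core vesicles, by prohormone convertases and carboxypeptidase E, and then acts on G protein–coupled receptors, often on cells beyond the synapse. In the retina these peptides are known for slow modulation of inner circuits and as labels of sparse amacrine cell types.

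The study compared WT mice with mice lacking the adiponectin receptor AdipoR1 in all cells (AdipoR1–/–, called KO here). Bulk RNA-Seq covered retina and isolated RPE cells of P30 mice, with 4 libraries per genotype and tissue. Single-cell RNA-Seq of retina had 1 WT and 1 KO library at each of P19, P25 and P30. The WT and KO groups were of the C57BL/6J strain, and homozygous KO mice came from a donated Deltagen mutant line that had been bred onto that background. Each single-cell library pooled cells of 4 retinae from 2 mice, so animals within a group could not be compared. Retinas of both eyes were collected for bulk RNA, and RPE cells were shaken off the posterior eyecup. The labels number the 4 bulk replicates of a group without naming animals, while the study's figure legend gives 4 mice, so bulk p-values are read as the spread between mice of these groups. Both P30 single-cell libraries were sequenced in 1 batch and the P19 and P25 libraries in another, so age and batch cannot be told apart, whereas each WT library had its KO partner in the same batch.

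Bulk retina libraries held 22734843 to 35118164 counts and bulk RPE libraries 20133143 to 38409496. The single-cell libraries of WT and KO held 5439 and 5300 cells at P19, 4367 and 5633 at P25, and 2558 and 3467 at P30. Their median depth was 3407 and 3568 UMIs per cell at P19, 4357 and 2523 at P25, and 1416 and 1349 at P30. The P30 libraries were therefore the shallowest, and KO cells at P25 were shallower than WT cells. The P30 pair shared 15 cell barcodes, the KO libraries of P19 and P25 shared 10, and every other pair shared 0 to 6.

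Adipor1, the deleted gene, was read first in every sample. In bulk retina it stood at 605, 601, 589 and 607 CPM (counts scaled to library size, with TMM factors) in WT and at 142, 138, 136 and 138 CPM in KO. In bulk RPE, Adipor1 stood at 379, 404, 479 and 374 CPM in WT and at 142, 148, 152 and 139 CPM in KO. In amacrine-like cells, Adipor1 was at 60.2, 68.4 and 79.2 CPM (UMIs of the gene scaled to all UMIs of the class in the library, as for all single-cell CPM) in WT at P19, P25 and P30, against 21.9, 24.3 and 18.9 in KO. In bipolar-like cells, Adipor1 was at 85.6, 87.3 and 146 CPM in WT and at 26.3, 28.4 and 20.5 in KO, and in ganglion-like cells at 43.8, 45.7 and 56.3 in WT and at 14.4, 27.4 and 23.3 in KO. Every KO library was below its WT counterparts, with residual counts from the locus in each.

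The 26764 cells formed 40 clusters in a grouping that left the 8 peptide genes out. Of these, 15 clusters with 6901 cells were amacrine-like, 8 clusters with 6484 cells were bipolar-like, and 1 cluster with 397 cells was ganglion-like. Amacrine-like clusters had 6 to 11 of 12 listed markers at 50 CPM or more, bipolar-like clusters 10 to 13 of 15, and the ganglion-like cluster 10 of 10. Amacrine-like cells made up 29.7% and 31.3% of WT and KO cells at P19, 32.5% and 22.9% at P25, and 16.9% and 14.0% at P30. Ganglion-like cells were few, with 18 in each P30 library, and their median depth differed between genotypes, from 2250 UMIs in WT to 19810 in KO at P19 and from 18680 in WT to 3054 in KO at P25.

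In bulk retina, the level of the precursors in WT was compared per kb of exon sequence. Npy, the precursor of neuropeptide Y, was the highest at 17.6 ± 1.40 CPM per kb (SD, n = 4), and Tac2, the precursor of neurokinin B, followed at 14.9 ± 0.654. Penk, the enkephalin precursor, stood at 9.06 ± 4.13 CPM per kb, Cck, the cholecystokinin precursor, at 7.56 ± 0.845, and Vgf, a granin-like precursor of several peptides, at 6.26 ± 1.40. Tac1, which encodes substance P and neurokinin A, stood at 4.75 ± 0.511 CPM per kb, Vip, the precursor of vasoactive intestinal peptide, at 4.19 ± 0.246, and Sst, the somatostatin precursor, was the lowest at 3.40 ± 0.763. Penk, Cck and Vgf lay within each other's spread, as did Tac1, Vip and Sst with their neighbours in this order. The Penk gene overlaps an antisense gene, A830012C17Rik, and the labels do not name the strand counted, so reads of these genes cannot be told apart.

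In bulk retina at P30, Npy was lower and Sst was higher in KO, and the other 6 did not pass the test; these counts lie near the shares over all genes given below. With TMM factors no member was a DEG, taken as a fold change of at least 1.5 with an adjusted p under 0.05, although 10.0% of the 19381 genes tested were. By edgeR (quasi-likelihood, p adjusted after Benjamini and Hochberg), 0 of 8 members were DEGs, and DESeq2 and limma-voom also gave 0. At an adjusted p under 0.05 alone, 2 of 8 members passed, 1 in each direction, against 30.9% of all genes. At an unadjusted p under 0.05, 3 of 8 passed, against 41.2% of all genes. The members' median log2 fold change was −0.16, beside 0.0036 over all genes tested. In bulk tissue, fewer cells of a type and less RNA per cell cannot be told apart.

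Npy, which in the retina labels a subset of amacrine cells, was at 9.25, 11.1, 9.57 and 9.90 CPM in the WT replicates and at 7.53, 8.09, 8.53 and 7.78 CPM in the KO replicates. All 4 KO libraries were below all 4 WT libraries, and Npy was the only 1 of 8 members whose groups did not overlap, against 31.4% of all genes. Mean Npy fell from 9.95 ± 0.793 to 7.98 ± 0.431 CPM (SD, n = 4), a log2 fold change of −0.32 ± 0.083 (SE; 95% interval −0.50 to −0.14), with an edgeR adjusted p of 0.0102. The Npy decrease, 1.25-fold, was below the fold that a DEG needed. With library totals in place of TMM factors its log2 fold change was −0.21 and its adjusted p by edgeR was 0.0594. In a fit of all 16 bulk libraries the log2 fold change stayed at −0.32, with an adjusted p of 0.779. The adjusted p ranged from 0.00703 by DESeq2 to 0.779 by edgeR in that fit over 18 alternatives, of which 16 passed.

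Sst, whose peptide is an inhibitory transmitter of sparse wide-field amacrine cells, was at 2.11, 2.05, 3.24 and 2.40 CPM in WT and at 3.49, 2.43, 4.57 and 4.08 CPM in KO. Of the KO libraries, 3 were above the highest WT library and KO replicate 2 lay inside the WT range, so the groups overlapped. Mean Sst rose from 2.45 ± 0.550 to 3.64 ± 0.922 CPM (SD, n = 4), a log2 fold change of 0.57 ± 0.20 (SE; 95% interval 0.14 to 1.00) or 1.48-fold, with an edgeR adjusted p of 0.0464. These values rested on 58 to 86 reads per WT library and 81 to 135 per KO library. The Sst call was lost with 1 library left out in 6 of 8 cases, with an edgeR adjusted p of 0.124, 0.108 and 0.0955 when WT replicate 1, 2 or 4 was left out, and of 0.0694, 0.142 and 0.105 when KO replicate 1, 3 or 4 was. Without WT replicate 3 or without KO replicate 2, the Sst log2 fold change was 0.73 and Sst passed as a DEG, as it did with library totals in place of TMM factors (0.68, edgeR adjusted p = 0.0171). The Sst call was also lost with limma-voom, at a log2 fold change of 0.54 and an adjusted p of 0.0635. In the fit of all 16 libraries it was lost at 0.57, with an adjusted p of 0.538. Sst was higher in KO in every same-numbered pair, and with the replicate block its edgeR adjusted p was 0.00792.

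Tac1 was at 14.5, 16.3, 15.3 and 18.5 CPM in WT and at 13.9, 14.4, 15.1 and 13.3 CPM in KO. Of the KO libraries, 3 were below the lowest WT library and the remaining KO library was inside the WT range. In every same-numbered pair KO was below WT. The log2 fold change of Tac1 was −0.18 ± 0.081 (SE), with an edgeR adjusted p of 0.108, which missed the threshold.

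Tac2 was at 20.1, 21.8, 20.5 and 19.7 CPM in WT and at 18.5, 18.0, 20.7 and 21.4 CPM in KO, and the groups overlapped. Its log2 fold change was −0.06 with TMM factors and 0.05 with library totals, so no direction was given for Tac2. Vip ran from 13.4 to 15.3 CPM in WT and from 11.2 to 14.5 in KO (log2 fold change −0.14). Cck ran from 8.32 to 10.9 CPM in WT and from 8.33 to 14.0 in KO, where KO replicate 3 was the highest, and its log2 fold change was 0.09 with all libraries and −0.07 without that one. Vgf ran from 15.3 to 24.4 CPM in WT and from 13.8 to 19.2 in KO (log2 fold change −0.20). Penk was the most variable member, with 7.38, 20.7, 10.8 and 20.3 CPM in WT and 11.2, 16.5, 7.68 and 12.8 CPM in KO. The spread of Penk within WT was larger than the difference between the genotype means, and its log2 fold change of −0.30 had an SE of 0.29. For Tac2, Vip, Cck, Vgf and Penk the edgeR adjusted p lay between 0.253 for Vip and 0.670 for Cck.

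**Figure D1:**
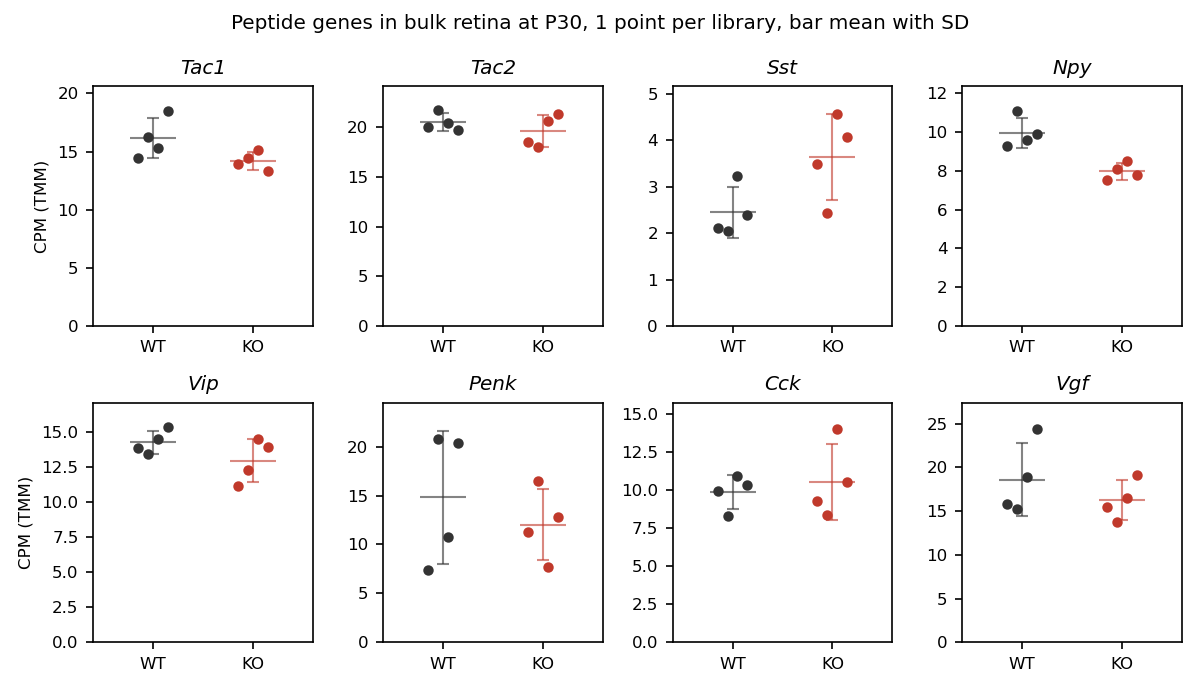
CPM of the 8 peptide genes in bulk retina at P30, with WT in dark grey and KO in red, 1 point per library, and a bar for the mean with its SD (n = 4). For Npy all 4 KO points lie below the WT points, for Sst 3 of 4 KO points lie above them, and the other genes overlap.

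The receptors of the peptides form a list of 20 genes, of which 12 passed the filter in bulk retina and 1 changed at an adjusted p under 0.05, beside 30.9% of all genes. That gene was Cckbr, the cholecystokinin B receptor, at 7.89, 6.95, 7.65 and 7.15 CPM in WT and at 12.1, 12.1, 11.6 and 11.1 CPM in KO. All KO libraries were above all WT libraries, and the log2 fold change was 0.66 ± 0.075 (SE), with an edgeR adjusted p of 1.62e-05. Its ligand gene, Cck, did not pass the test in the same libraries. Oprm1, the mu opioid receptor (log2 fold change 0.40, edgeR adjusted p = 0.0938), and Sstr1, a somatostatin receptor (0.35, adjusted p = 0.194), did not pass. Vipr2, a receptor for VIP, was the most abundant of the list at 65.2 CPM in WT and 61.6 in KO. The remaining receptors that passed the filter, Tacr1, Tacr3, Sstr2, Sstr3, Sstr4, Npy1r, Vipr1 and Adcyap1r1, had log2 fold changes between −0.07 (Tacr3) and 0.57 (Sstr3) and did not pass the test.

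In the single-cell matrix, receptors and their ligands could be placed in the inner retinal classes. Tacr3, the neurokinin B receptor, was at 68.8 CPM in bipolar-like cells and at 9.18 in amacrine-like cells, whereas its ligand gene Tac2 was at 2.42 and 242. Sstr2, a somatostatin receptor, was at 17.9 CPM in amacrine-like cells, with 1 UMI in bipolar-like cells. Vipr2 was at 103 CPM in bipolar-like, 42.3 in ganglion-like and 21.7 in amacrine-like cells. Tacr1, the substance P receptor, was at 15.4 CPM in amacrine-like cells and at 4.66 in bipolar-like cells. Npy1r was at 9.84 CPM in ganglion-like cells, and its class was not ranked. No counting interval was given for these receptor values. Cckbr had 13, 19 and 4 UMIs in amacrine-like, bipolar-like and ganglion-like cells, too few to place the gene that changed in bulk.

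Of 22 genes for peptide processing and dense-core vesicles, all were tested in bulk retina, 7 were higher and 2 lower in KO at an adjusted p under 0.05, and 1 was a DEG, beside 16.2% higher, 14.7% lower and 10.0% DEGs over all genes. Ptprn, a membrane protein of dense-core vesicles, rose from 78.7 ± 5.34 to 130 ± 10.0 CPM, with a log2 fold change of 0.73 and an edgeR adjusted p of 8.67e-07. Its paralog Ptprn2 rose by 0.44 on the log2 scale, and Pcsk2, a prohormone convertase, also by 0.44, from 55.4 to 75.0 CPM. Cpe, the carboxypeptidase that trims the cut peptides, fell from 998 to 851 CPM, a log2 fold change of −0.23, and Scg5, a chaperone of Pcsk2, by −0.11. The list's median was 0.06, beside 0.0036 over all genes. Of 49 other neuropeptide precursors, 19 passed the filter, 3 were higher and 4 lower (beside the same shares of all genes), and 4 were DEGs, Calca and Ucn2 (by 1.00 on the log2 scale) upward and Apln and Crh (−0.82) downward. Calca, the precursor of calcitonin gene-related peptide, rose from 0.981 to 6.91 CPM (log2 fold change 2.81, edgeR adjusted p = 1.37e-08), while Apln, the apelin precursor, fell from 1.85 to 0.608 CPM and Nucb2, the nesfatin precursor, from 32.0 to 24.1 CPM.

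Peptide genes are known targets of activity-regulated transcription, and 13 of 24 genes of such a list were higher in KO bulk retina at an adjusted p under 0.05, 11 of them as DEGs and none lower, beside 16.2% higher and 10.0% DEGs over all genes. In the same libraries 8 of 8 microglia markers and 5 of 8 Müller glia markers were also higher, and the part of these cells was not tested. In amacrine-like cells 0 of the 24 passed by limma-trend, also at an unadjusted p under 0.05 (beside 0.00657% and 4.82% of all genes), with a median log2 fold change of −0.07 beside −0.03 over all genes. In bipolar-like cells 0 of 21 tested passed and 2 were higher at an unadjusted p (beside 0.0369% and 4.43%), with a median of 0.22 beside −0.04. In bulk retina, Gadd45b rose by 2.28, Fosb by 2.08 and Junb by 1.30 on the log2 scale. Beside these, the 8 peptide genes held 1 that was higher, Sst, and 1 that was lower, Npy.

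Marker lists of the retinal cell classes were counted in bulk retina beside the 30.9% of all genes that passed. None of 10 amacrine markers passed the edgeR test, adjusted or not, and their sum was 1536, 1740, 1614 and 1719 CPM in WT and 1687, 1671, 1728 and 1769 in KO. Of 5 starburst amacrine markers, 2 were higher (Megf10 by 0.31 and Sox2 by 0.25 on the log2 scale). Slc5a7, the lowest of that list, was at −0.14 and did not pass. Th, which marks dopaminergic amacrine cells, was 1 of 2 markers tested for them and fell by 0.33. Of 15 bipolar markers, 5 were higher and 1 lower, with Trpm1 at 0.29, Grm6 at 0.27, Car8 at 0.20 and the lower one, Cabp2, at −0.31 on the log2 scale. None of 10 ganglion markers passed at an adjusted p, and 2, Slc17a6 and Pou4f3, did at an unadjusted p under 0.05. Of the other classes, 8 of 9 rod markers fell, with a KO sum 0.534 times that of WT, and 8 of 8 microglia markers rose, with a KO sum 4.17 times that of WT; C1qa rose most, by 2.68 on the log2 scale, and Csf1r was the most abundant. Of 8 Müller glia markers, 5 were higher, Apoe among them by 1.08, and 1, Glul, was lower (−0.25). Rod-like single cells held 0.372 (Penk) to 8.65 (Cck) CPM of the peptide genes. With library sizes taken without rod marker counts, Sst passed as a DEG at a log2 fold change of 0.64 (edgeR adjusted p = 0.0248), Tac2 turned to 0.01, and Npy kept its call.

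In bulk RPE, 7 of 8 members were tested and none passed. By edgeR, 0 of 7 were DEGs, against 4.97% of 18989 genes, and 0 passed at an adjusted p under 0.05, against 6.73% (3.89% lower and 2.84% higher in KO). At an unadjusted p under 0.05, 1 of 7 passed by edgeR, 2 by DESeq2 and 0 by limma-voom, against 20.3% of all genes by edgeR. Penk was at 58.8, 66.8, 17.9 and 211 CPM in WT and at 40.6, 35.1, 15.8 and 17.4 CPM in KO. WT replicate 4 was the highest and the groups overlapped, and the log2 fold change of −1.70 had an edgeR adjusted p of 0.219, and Penk was at −0.81 without that library, the smallest in a range of −2.28 to −0.81 over the alternatives. Cck was alike in all 8 RPE libraries, from 6.33 to 9.05 CPM, with a log2 fold change of −0.01.

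The other peptide genes were uneven between the RPE libraries of a genotype. Tac1 was at 0.354, 4.86, 3.81 and 0.157 CPM in WT and at 0.217, 0.666, 1.47 and 0.400 CPM in KO. Tac2, Npy, Vip and Vgf were likewise highest in WT replicates 2 and 3, Vgf for example at 9.33 and 7.17 CPM there and at 0.843 and 0.942 CPM in replicates 1 and 4. Sst had 17 and 7 counts in WT replicates 2 and 3 and none in the other WT libraries. Its counts in KO were 6, 6, 14 and 0, and KO replicate 3 was the highest of the RPE libraries at 0.529 CPM. Rod markers moved with them: their sum was 995, 15780, 15610 and 1511 CPM in WT and 654, 3795, 5388 and 1028 CPM in KO, with none of the 9 at 0 in any library. None of the 9 rod markers passed the edgeR test in RPE, adjusted or not. Without WT replicates 2 and 3 the log2 fold change of Tac1 turned from −1.75 to 1.34 and that of Vip from −1.03 to 2.32. The part of neural retina RNA in these RPE values was not tested. Among the receptors, 8 of 20 were tested in RPE and 1 changed (beside 6.73% of all genes), Vipr2, which fell from 51.8 to 23.0 CPM, a log2 fold change of −1.17 with an edgeR adjusted p of 0.000545.

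The difference between the tissues was tested as the interaction of genotype and tissue in 1 fit of 16 libraries, in which 8.84% of 21068 genes passed at an adjusted p under 0.05. By edgeR, 0 of 8 peptide genes passed, and 0 also at an unadjusted p under 0.05, against 22.3% of all genes. DESeq2 gave 0 and 0. Penk had the largest interaction after Tac1 and Vgf, −1.36 ± 0.81 on the log2 scale (SE, RPE minus retina), with the lowest edgeR adjusted p of the members, 0.354. Sst had the smallest, at −0.08.

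Across the single-cell classes, with all 6 libraries summed, 6 of the 8 genes were highest in amacrine-like cells, Cck in bipolar-like and Penk in ganglion-like cells. Tac1 stood at 280 CPM in amacrine-like cells (95% exact Poisson interval 275 to 285, counting error only) and at 231 in ganglion-like cells. Tac2 stood at 242 CPM in amacrine-like cells, Npy at 214, Vip at 167, Vgf at 68.4 and Sst at 48.6. Cck stood at 367 CPM in bipolar-like, 128 in amacrine-like and 74.3 in ganglion-like cells. Penk stood at 60.7 CPM in ganglion-like and 6.55 in amacrine-like cells. Among the classes outside the inner retinal trio, Npy stood at 117 CPM in horizontal-like and 65.4 in Müller glia-like cells. Within single libraries the order did not hold for all of these genes, and Tac1 was higher in ganglion-like than in amacrine-like cells in 3 libraries (360 against 277 CPM in KO at P19, 235 against 199 in KO at P25, and 274 against 273 in WT at P19, where the intervals overlap). Npy was at 348 CPM in horizontal-like and 304 in amacrine-like cells of WT at P30, with overlapping intervals. Sst was at 67.4 CPM in Müller glia-like cells of WT at P19, from 103 UMIs of which 102 were in 1 cell. Tac2 at 38.9 CPM in Müller glia-like cells came from a single cell with 381 of 395 UMIs.

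**Figure D2:**
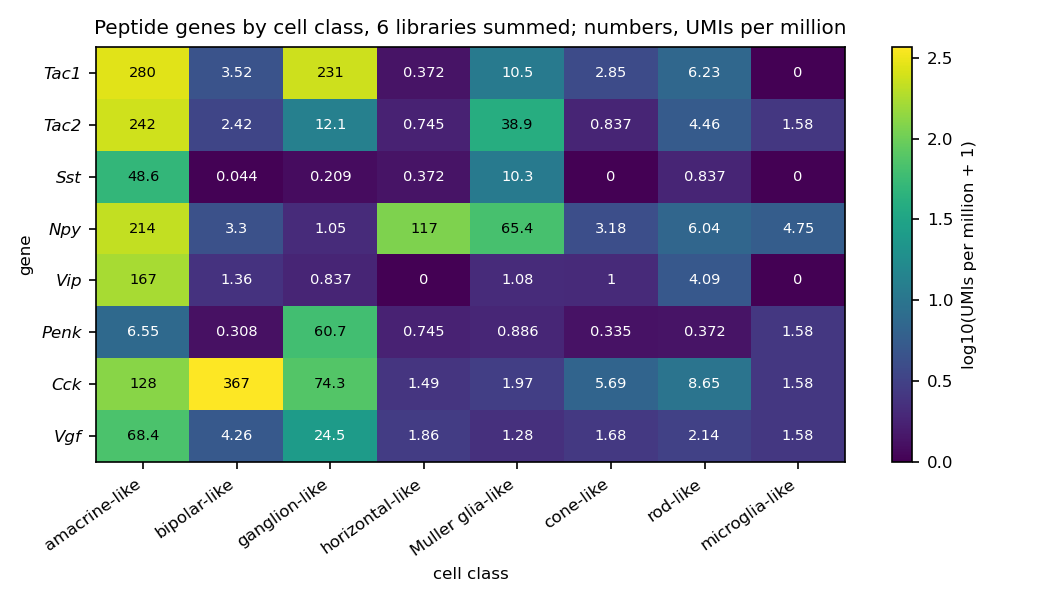
CPM (UMI-based) of the 8 peptide genes (vertical) in 8 cell classes (horizontal), with the UMIs of 6 libraries summed; colour is the log10 of the value plus 1 and the printed number is the value itself. In these sums the highest value of Cck is in bipolar-like cells, that of Penk is in ganglion-like cells, and those of the other 6 are in amacrine-like cells, an order that Tac1 keeps in 3 of 6 libraries.

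Within amacrine-like cells, most of the peptide mRNA sat in few cells. Tac1 UMIs were seen in 10.8% of these cells, Npy in 8.88%, Vip in 3.22%, Tac2 in 2.84% and Sst in 0.377%. In rod-like cells, which are not known to make these peptides, the shares were 0.0493% for Penk to 1.07% for Cck, at a median of 1085 UMIs per cell against 4626 in amacrine-like cells. Cells with 5 or more UMIs of a gene, called high cells here, held 99.0% of the Tac2 and Sst UMIs, 97.5% of Vip, 94.2% of Npy, 93.9% of Tac1 and 83.6% of Cck. Vgf was spread over more cells (16.2%) with low counts, and 40.1% of its UMIs were in high cells. Penk was seen in few cells (1.90%), also with low counts, and 28.0% of its UMIs were in high cells. No rod-like cell was a high cell for any of the 8 genes.

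The peptide genes were unevenly spread over amacrine-like clusters, described here with no test because each cluster was chosen for these genes' levels. Cluster 9, led by Vip, Tac2, Cbln2 and Olfm3, held 95.1% of the Vip, 92.7% of the Tac2, 81.1% of the Sst and 48.6% of the Tac1 UMIs of the class. At a Leiden resolution of 2.0 these genes parted, with 6174 Vip and 75 Tac2 UMIs in 1 cluster and 2 Vip and 8608 Tac2 UMIs in another, so a shared cluster depends on the resolution. Tac1 was also in cluster 8 with 21.3%, cluster 17 with 16.5% and cluster 36 with 10.8% of its UMIs, the last at 1555 CPM. Npy was divided over cluster 9 (33.3%), cluster 8 (27.2%), cluster 30 (20.4%) and cluster 24 (11.9%). Cluster 30 had the starburst markers Chat, Slc18a3 and Slc5a7 among its 10 leading genes, and held Npy at 1099 and Cck at 784 CPM. The largest share of amacrine Cck was in cluster 13, led by Col12a1, Cntn6 and Crabp1, with 45.4% of its UMIs at 1040 CPM. At a Leiden resolution of 2.0, a cluster led by Cntn6 and Crabp1 held 2245 Cck UMIs, and another led by Col12a1 held 4. Vgf had 41.0% in cluster 8. Penk in amacrine-like cells lay mostly in cluster 29, which is led by Car3 and includes Slc17a8, a vesicular glutamate transporter, with 55.5% of its UMIs.

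In bipolar-like cells, 91.3% of the Cck UMIs lay in cluster 11, led by Cck, Cnmd and Vsx1, at 2944 CPM. Outside the named classes, Penk was at 505 CPM in cluster 27, which was led by Ttr, Cryaa and Ptgds, had 2 of 5 lens markers detected and was left unnamed. Penk in that cluster was at 698, 614 and 380 CPM in WT at P19, P25 and P30 and at 467, 128 and 128 in KO, with intervals apart at P19 and P25 and overlapping at P30, where the values were 11 and 4 UMIs.

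Few amacrine-like cells were high for more than 1 of the peptide genes. Of 6901 cells, 5725 were high for none, 908 for 1, 244 for 2, 23 for 3 and 1 for 4. Npy and Cck shared 81 cells, 23.4% of the 346 Npy cells and 23.2% of the 349 Cck cells. Tac1 and Tac2, both tachykinin genes, shared 76 cells, 19.8% of the 384 Tac1 cells but 56.3% of the 135 Tac2 cells. Tac1 and Npy shared 79 cells, 20.6% and 22.8% of each. In ganglion-like cells none of the 45 Tac1, 18 Penk and 17 Cck high cells was high for another of these genes. No doublet caller was run, so cells that hold a pair of these genes may include droplets with more than 1 cell, which was not tested.

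Over the 40 clusters, the genes whose levels were most like each member were named by Pearson correlation of log2 values, as a description. Vip was closest to Alox12b (r = 0.920), Gm43066 (0.904) and Lypd11 (0.902), Tac1 to AI593442 (0.899), Clmp (0.832) and Cbln2 (0.802), and Penk to Catsperz (0.881), Pld5 (0.880) and Mme (0.873). Tac2 was closest to Sst (0.817), Ucma (0.776) and Cbln2 (0.771), and Sst to Tac2, Crh (0.800) and Ucma (0.753). Of the 10 Sst high cells among amacrine-like cells, 0 were high for Tac2. In cluster 15, which was Müller glia-like, 1 cell held 381 of 386 Tac2 UMIs and 1 cell held 102 of 103 Sst UMIs. Vgf was closest to Pianp (0.826), Rgs17 (0.808) and Tmem121b (0.806), and Npy to Gm29508 (0.789), Id4 (0.714) and Npnt (0.703). Cck, with 2 main sources in different classes, had the weakest neighbours, Mindy4b-ps (0.656), A230004M16Rik (0.649) and Gm5478 (0.599).

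Between genotypes, amacrine-like cells of KO held more Cck than those of WT at each of the 3 ages. Cck was at 101, 94.95 and 63.6 CPM in WT at P19, P25 and P30, and at 195, 144 and 85.3 in KO. The KO value was higher at every age, and the counting intervals lay apart at P19 and P25 and overlapped at P30, where the values rested on 94 and 113 UMIs. With age as a term in a limma-trend fit of the 6 summed libraries, the log2 fold change of Cck was 0.66 ± 0.11 (SE; 95% interval 0.39 to 0.92), or 1.58-fold, and its adjusted p was 0.802, so it did not pass. By edgeR on the same sums the adjusted p was 0.00373, and by limma-trend without the P30 pair it was 0.00914, within a range of 0.00373 to 1.00 over 9 alternatives of which 2 passed.

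Cck in amacrine-like cells was also read cell by cell. The highest cell of a library held 2.43% to 11.7% of its Cck UMIs, and without that cell the values were 96.9, 91.3 and 56.5 CPM in WT and 190, 136 and 78.7 in KO. High cells for Cck numbered 73 in WT and 141 in KO at P19, 58 and 66 at P25, and 3 and 8 at P30. With every cell thinned to 1000 UMIs, 3.25% of WT and 6.53% of KO amacrine-like cells had 2 or more Cck UMIs at P19, 2.29% and 4.02% at P25, and 1.19% and 2.35% at P30. In cluster 13, Cck was at 827, 530 and 534 CPM in WT and at 2039, 1009 and 641 in KO, with overlapping intervals at P30, where the values rested on 40 and 14 UMIs. Cluster 13 made up 9.72% of WT and 2.89% of KO amacrine-like cells at P30 (42 and 14 cells). In cluster 30, with starburst markers, Cck was at 676, 950 and 758 in WT and at 614, 1189 and 906 in KO, where P19 went the other way and the intervals overlapped at all 3 ages. Cluster 30 made up 1.80% of WT and 4.70% of KO amacrine-like cells at P19. Of the Cck UMIs of the class, cluster 13 held 503 of 1019 in WT and 999 of 1810 in KO at P19. It held 313 of 926 and 380 of 987 at P25, and 40 of 94 and 14 of 113 at P30. Cluster 9, with 22.1% of the amacrine Cck UMIs, was not read by genotype for Cck. The part of each cluster in the class difference was not tested.

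Vip, expressed by a sparse amacrine type, was at 121, 171 and 119 CPM in WT amacrine-like cells at P19, P25 and P30, and at 126, 252 and 404 in KO. KO was above WT at all 3 ages, by 0.07, 0.57 and 1.76 on the log2 scale, with overlapping intervals at P19. The fitted log2 fold change of Vip was 0.80 ± 0.27 (SE; 95% interval 0.15 to 1.44), with a limma-trend adjusted p of 0.802, and ran from 0.32 without the P30 pair to 1.16 without the P19 pair. The P30 values rested on few cells, 5 high cells in WT and 9 in KO, and 1 cell held 51.1% of the WT and 25.9% of the KO UMIs. Without the highest cell of each library, Vip at P30 was at 58.4 CPM in WT and 301 in KO. Bulk retina at P30 gave a log2 fold change of −0.14 for Vip, which did not pass the test. In cluster 9 alone, Vip was at 471, 693 and 424 CPM in WT and at 626, 1062 and 1514 in KO.

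Sst was at 52.2, 14.9 and 0.677 CPM in WT amacrine-like cells and at 76.1, 73.5 and 0.754 in KO. At P30, where bulk retina held more Sst in KO, amacrine-like cells of each library had 1 Sst UMI. Nearly all Sst came from 3 high cells per genotype at P19 and 2 at P25, and 1 cell held 58.0% of the UMIs in WT and 64.1% in KO at P19, and 95.2% and 93.6% at P25. The fitted log2 fold change of 0.98 ± 0.39 (SE) had a limma-trend adjusted p of 0.802. It was −0.80 without the 5% of cells with the most UMIs, so no direction was given for Sst in single cells.

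For Tac1 and Tac2, KO lay on different sides of WT at different ages. Tac1 was at 273, 307 and 203 CPM in WT and at 277, 199 and 664 in KO, alike at P19, lower in KO at P25 and higher at P30. Tac2 was at 272, 252 and 67.0 in WT and at 264, 165 and 359 in KO, with the same order. The intervals of WT and KO lay apart at P25 and P30 for both genes. In bulk retina at P30, where neither passed the test, the log2 fold changes were −0.18 for Tac1 and −0.06 for Tac2. In KO at P30 the largest cluster of amacrine-like cells was cluster 8, with 26.5% of the cells against 16.9% in WT, and Tac1 in it was at 1273 CPM against 295. In cluster 9, the largest source of both genes, Tac1 followed the class (718 against 432 CPM in WT and KO at P25, and 254 against 1131 at P30), while Tac2 was higher in KO at P19 with intervals apart (1061 against 1314). Other clusters did not all follow the class, since Tac1 in cluster 8 was also higher in KO at P19 (513.5 against 244 CPM), and in cluster 17 it was lower in KO at P30 (70.7 against 290), from 4 and 34 UMIs. For Tac2 at P30, 1 cell held 62.6% of the 99 WT UMIs and 23.3% of the 476 KO UMIs, and the values without it were 25.3 and 277 CPM. Median depth of amacrine-like cells was 6117 UMIs in WT and 4486 in KO at P25 and 3058 and 2523 at P30, and the part of depth and of cluster make-up in these Tac1 and Tac2 values was not tested. Over the ages, the limma-trend log2 fold changes were 0.37 ± 0.37 (SE) for Tac1 and 0.59 ± 0.50 for Tac2, and without the P30 pair they were −0.30 and −0.33.

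Npy was at 173, 222 and 304 CPM in WT and at 240, 210 and 203 in KO, higher in KO at P19, overlapping at P25 and lower at P30. The high cells of Npy numbered 66 in WT and 102 in KO at P19 and 17 in each at P30. At P30 the Npy level was lower in KO with intervals apart in cluster 8 (579 and 270 CPM) and cluster 9 (670 and 271), and in cluster 30 it was at 1516 and 1378 with overlapping intervals. At P19 the clusters went different ways with intervals apart, with Npy lower in KO in cluster 9 (288 against 368.5 CPM) and cluster 30 (835 against 1046) and higher in cluster 8 (428 against 258) and cluster 24 (597 against 201). Over the 3 ages the log2 fold change of Npy was −0.06 ± 0.17 (SE).

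Vgf was at 66.9, 66.9 and 36.5 CPM in WT and at 87.2, 61.5 and 30.2 in KO, apart at P19 alone. Penk in amacrine-like cells was at 4.45, 6.67 and 8.80 CPM in WT and at 7.97, 8.04 and 1.51 in KO, higher in KO with intervals apart at P19 and overlapping at P25 and P30, where the P30 values were 13 and 2 UMIs. The intervals at each age cover counting error in 1 library per group and not the difference between animals.

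By limma-trend, 0 of 8 genes passed at an adjusted p under 0.05 in amacrine-like cells, where 1 of 15232 genes did (0.00657%). By edgeR on the same sums 2 passed, Cck and Sst, beside 31 of 15232 genes. At an unadjusted p under 0.05 the limma-trend count was 3 of 8, Cck, Vip and Sst, with Sst resting on few cells, against 4.82% of all genes, and the members' median log2 fold change was 0.48 beside −0.03 over all genes. With 2 residual degrees of freedom the fit rested on the scatter between 3 ages, so a gene that missed the threshold is not shown to be alike in WT and KO.

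**Figure D3:**
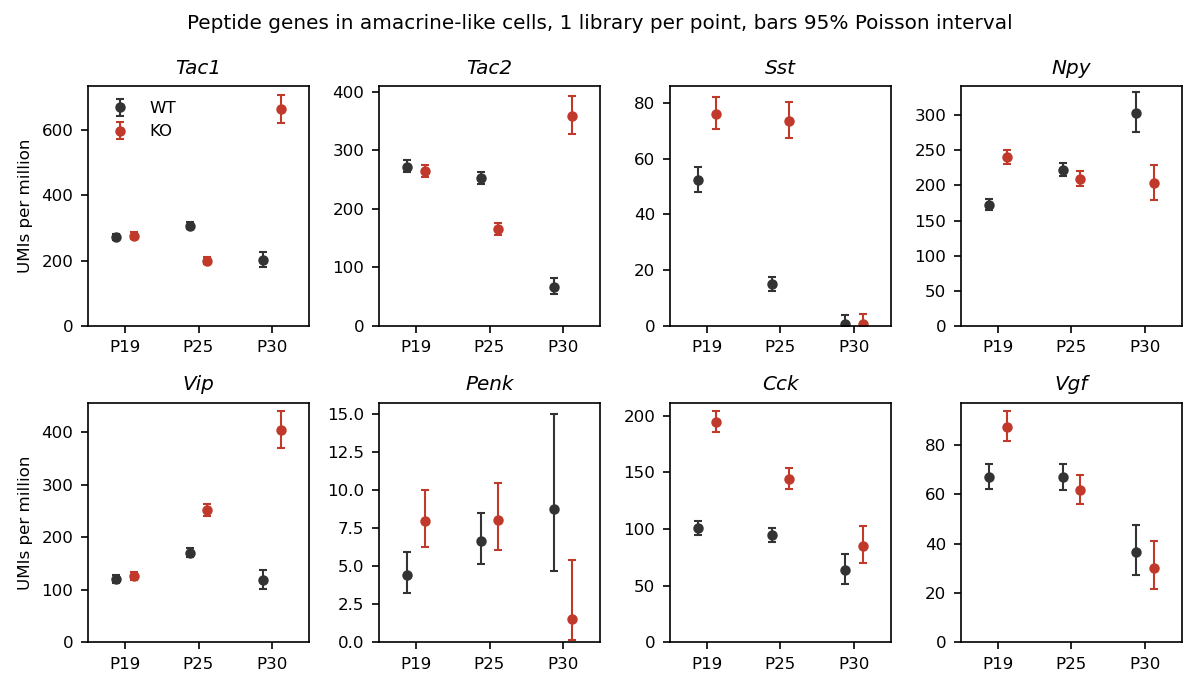
CPM (UMI-based) of each peptide gene (vertical) in amacrine-like cells at P19, P25 and P30 (horizontal), with WT in dark grey, KO in red, 1 library per point and bars for the 95% Poisson interval of the count. Cck lies higher in KO at each age, Vip parts at P25 and P30, and for Tac1, Tac2 and Npy the order of the genotypes differs between ages.

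In bipolar-like cells as a class, Cck did not pass the test between genotypes. Cck was at 351, 387 and 327 CPM in WT at P19, P25 and P30 and at 351, 391 and 374 in KO, from 291 to 2209 UMIs per library. The counting intervals overlapped at all 3 ages. The fitted log2 fold change of Cck was 0.07 (95% interval −0.11 to 0.25), with a limma-trend adjusted p of 0.835. This fit also rested on the scatter between 3 ages, so Cck is not shown to be alike in WT and KO. The difference between the classes was not tested. In cluster 11 alone, Cck was at 2598, 3253 and 2846 CPM in WT and at 2899, 3228 and 2987 in KO, with intervals apart at P19 (2487 to 2712 against 2760 to 3043). In cluster 18, a minor source, Cck was at 160 CPM in WT and 391.5 in KO at P25, with intervals apart, and the intervals overlapped at P19 and P30.

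The other peptide genes were at 0.0440 (Sst) to 4.26 (Vgf) CPM in bipolar-like cells over all libraries. Vgf was higher there than in rod-like cells, at 2.14 CPM, with intervals apart, and held 35.1% of its bipolar UMIs in cluster 22. Sst with 1 UMI and Penk with 7 were not tested, and by limma-trend 0 of the 6 members tested passed, at an adjusted p against 0.0369% of 13553 genes or at an unadjusted p under 0.05 against 4.43%. By edgeR on the same sums 0 passed at an adjusted p, beside 62 of 13553 genes, and 1 at an unadjusted p, beside 814. Tac1 and Tac2 each had 28 UMIs in KO at P30, of which 25 and 24 were in 1 cell. Npy at P19 was at 2.70 CPM in WT and 7.29 in KO, from 17 and 36 UMIs, with intervals apart. Rod-like cells of KO at P19 held Npy at 16.3 CPM.

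**Figure D4:**
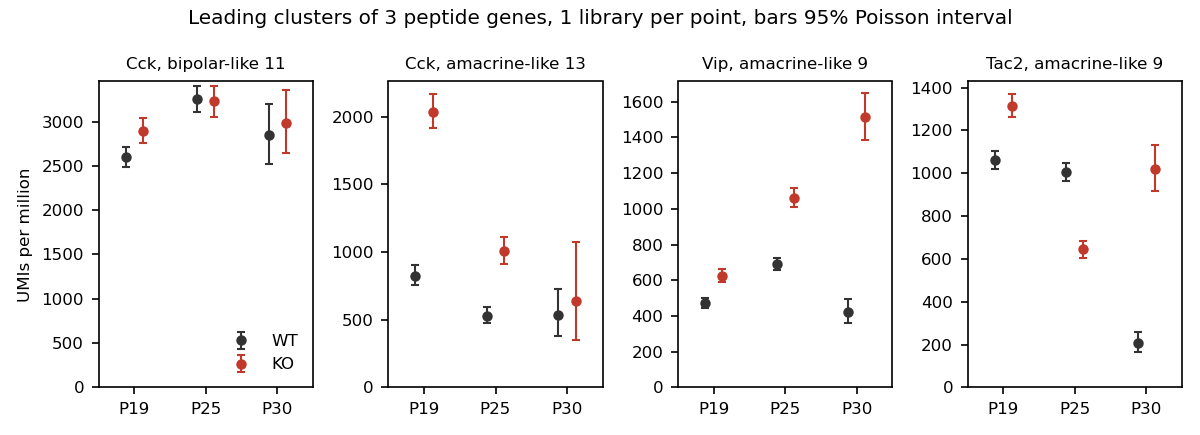
CPM (UMI-based, vertical) of Cck in bipolar-like cluster 11 and amacrine-like cluster 13, and of Vip and Tac2 in amacrine-like cluster 9, at 3 ages (horizontal), with WT in dark grey, KO in red, 1 library per point and 95% Poisson intervals. Cck in cluster 11 has intervals apart at P19 and overlapping ones at P25 and P30, while in cluster 13 it parts at P19 and P25.

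In ganglion-like cells, Penk and Cck were lower and Tac1 higher in KO at P19 and P25, without a test, since a library held as few as 18 of these cells. Penk was at 81.8, 97.0 and 65.0 CPM in WT and at 31.4, 20.5 and 29.1 in KO, apart at P19 and P25. These Penk values came from 7 high cells in WT and 2 in KO at P19 and from 5 and 1 at P25, and in KO at P25 a single cell held all 15 UMIs. Cck was at 130, 90.4 and 104 CPM in WT and at 30.6, 10.9 and 52.3 in KO, again apart at P19 and P25, and 1 cell held 50 of 181 UMIs in WT and 23 of 36 in KO at P19. Tac1 was at 274 and 107 CPM in WT and at 360 and 235 in KO at P19 and P25, with 7 and 4 UMIs at P30. Tac2 had 55 UMIs in KO at P25 and 1 in WT, and Vgf intervals overlapped at all ages. Whether the ganglion types sampled differed between libraries was not tested.

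The promoters of the peptide genes were searched for the cAMP response element, since several of these genes are known targets of CREB. RefSeq promoters of GRCm38.p6 matched 6 of 8 genes and did not include Penk and Vgf. In the 250 bases before the start of each gene, the full element TGACGTCA, which reads the same on both strands, was in 1.55% of 32851 promoters, and the half-site TGACG was on either strand in 17.8%. For Sst and Tac1 the start used by RefSeq lies inside the span of the gene given by GENCODE in the next paragraph, so their stretches fall within that span. Sst had 1 full element, 48 bases before its RefSeq start, in which half-sites on both strands overlap. Tac1 had 2 half-sites, 197 and 43 bases before the start, Vip had 1 at 79 and Cck 1 at 47, and Tac2 and Npy had none. The stretches around the element nearest the start are shown for the genes that have one, as 5′ to 3′ on the gene's strand, with the full element or half-site in capitals (CGTCA where it lies on the other strand). They lie at chr16:23890874-23890903 (−) for Sst, chr6:7555007-7555036 (+) for Tac1, chr10:5639128-5639157 (+) for Vip and chr9:121495723-121495752 (−) for Cck.
Sst: gcctccttggcTGACGTCAgagagagagtt
Tac1: ctctacaggctCGTCAcgcctgagataaat
Vip: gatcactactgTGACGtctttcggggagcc
Cck: ctgctggactgCGTCAgcactgggtaaaca
A match of letters describes the window alone.

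In the mm10 build, Tac1 (ENSMUSG00000061762) is at chr6:7554879-7565834 (+), Tac2 (ENSMUSG00000025400) at chr10:127724478-127731768 (+), Sst (ENSMUSG00000004366) at chr16:23889573-23890958 (−) and Npy (ENSMUSG00000029819) at chr6:49822710-49829507 (+). Vip (ENSMUSG00000019772) is at chr10:5639218-5647617 (+), Penk (ENSMUSG00000045573) at chr4:4133531-4138819 (−), Cck (ENSMUSG00000032532) at chr9:121489824-121495694 (−) and Vgf (ENSMUSG00000037428) at chr5:137026392-137033351 (+). All 8 are annotated as protein-coding, and counts were taken per gene.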

How the data were processed

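Bulk RNA-Seq of retina and RPE at P30 and single-cell RNA-Seq of retina at P19, P25 and P30 were analysed, in groups set by genotype, tissue and age as labelled. The bulk tables that the authors deposited hold a raw count of reads for each gene and library. The labels do not name the aligner, the counting program or its use of strand. The single-cell matrix that the authors deposited is on a natural log scale. After 1 inverse step each cell summed to 10000, and after 2 inverse steps 99.99882% of 46532493 values were whole to within 0.01, with 3 cells that were not, so the log scaling had been applied 2 times and UMI counts were recovered. Raw counts had been planned for, and the recovered counts were used in their place. The submitters' processing notes name bcl2fastq, FastQC, Cell Ranger 2.1, Seurat 3.2.2, HOMER, edgeR 3.20.9 and the build mm10. The matrix holds 26764 cells, the number of cells that the study analysed, and no further filter on cells was applied.

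The members and gene lists were chosen with earlier results of these data known. Identifiers were matched to symbols in GENCODE M21 (53620 of 53801), which also gave exon lengths. Bulk genes passed through filterByExpr, were scaled with TMM and were tested within each tissue by edgeR 4.0.16 (quasi-likelihood, Benjamini-Hochberg) in R 4.3.3. The interaction was fitted over all 16 bulk libraries. Single cells were clustered on 2000 variable genes other than the members, 30 components and 15 neighbours with leidenalg 0.10.2 at a resolution of 1.0, in Python 3.11.15 with NumPy 2.4.6, SciPy 1.17.1 and pandas 2.3.3, and figures were drawn with Matplotlib 3.10.9. A cluster was named from listed markers when 3 or more were at 50 CPM or more. It stayed unnamed when a second class scored within 0.9 of the best, when a non-photoreceptor cluster had rod markers over 10000 CPM, when more of its 10 leading genes marked another class, or when shallow cells lacked a leading marker. These thresholds were set after clusters were seen, and cell names may differ from those of the study. Unnamed cells were 3.71% of WT and 2.55% of KO cells at P19, 1.70% and 1.74% at P25, and 1.92% and 3.61% at P30. No doublet caller was run, and an alternative left out the 5% of cells with the most UMIs.

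UMIs were summed per library and class, and genes with 20 or more UMIs were tested with limma-trend (limma 3.58.1) on log2 CPM (prior count 2) with a term for age, for classes with 50 or more cells in every library. Ganglion-like cells did not reach this. A single age has 1 library per genotype, so values carry exact Poisson or Clopper-Pearson 95% intervals and no test. For shares, cells were thinned to 1000 UMIs and shallower cells were left out. Both test scripts were first tested on simulated data.

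All 8 members were named in every comparison. From each list the 3 genes with the smallest bulk retina p and a mean of 1 CPM or more were named, with every receptor of the members that passed the filter and the 3 genes most alike over clusters with 20 or more cells and 50 or more UMIs. Genes that stand in the text outside this rule, among them Cpe, Scg5, Ucn2, Crh, Cabp2, Glul, Csf1r and the leading genes of clusters, were added after their values were seen. The gene lists were other peptide precursors, receptors, peptide processing and dense-core vesicles, activity-regulated genes and markers of amacrine, starburst, dopaminergic, bipolar, ganglion, rod, microglial and Müller cells.

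Replicates were first compared with each other, and replicate libraries of a group differed by more than sampling noise, so each counted as 1 sample. Same-numbered WT and KO libraries deviated together from their group means, with correlations over genes of 0.307, 0.158, 0.241 and 0.192 in retina and 0.587, 0.559, 0.716 and 0.335 in RPE. Since every same-numbered pair was over 0.1, the numbers were taken to pair the samples, although some differently numbered pairs correlated as much or more, WT 4 with KO 3 at 0.236 in retina and WT 1 with KO 4 at 0.705 in RPE for example. Alternatives were DESeq2 1.42.0, limma-voom, other size factors, other filters, a replicate block, each library left out, a fit of all 16 libraries, and for cells edgeR, other prior counts and filters, each age left out, no age term and a Leiden resolution of 2.0.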

Additional observations from a re-analysis of the deposited data

Results flagged for a closer look

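Of the 36 groups of 4 bulk libraries of the peptide genes and Adipor1, 0 had a library that stood apart from the other 3 by Dixon's test, whereas chance gives such a library in about 1 in 20 groups.

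In amacrine-like cells, the KO value lay on opposite sides of the WT value at different ages for 3 peptide genes, with counting intervals that did not overlap. These differences between ages were not tested, since each value comes from 1 library per genotype and age. Tac1 was lower in KO at P25 (log2 ratio −0.62) and higher at P30 (1.71). Tac2 was also lower at P25 (−0.61) and higher at P30 (2.42). Npy went the other way, higher in KO at P19 (0.47) and lower at P30 (−0.58). The P30 libraries were sequenced in another batch than the P19 and P25 libraries, so age and batch cannot be told apart. In bulk retina at P30, neither Tac1 nor Tac2 passed the test (log2 fold change −0.18 and −0.06).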

How the results depend on the processing

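Over all alternatives, 131 of 144 values of the peptide genes in bulk retina kept their direction and their side of the threshold, 10 lost the call and 3 reversed. In bulk RPE 104 of 114 were the same and 10 reversed, in the interaction 137 of 144 and 7, in bipolar-like cells 42 of 48 and 6. In amacrine-like cells 59 of 72 were the same, 10 reversed and 3 gained a call. Of the shares of cells with 5 or more UMIs, 297 of 408 stayed within their interval and 111 moved when the minimum, the thinning or the deepest cells were changed. The cause of each shift was not tested. Few cells and UMIs limit the P30 and ganglion-like values, and few reads limit Sst. Stricter filters or fewer libraries left some genes without a value, in RPE Tac1, Tac2 and Vip with 10 or more counts in every library and Tac1 and Vip without replicates 2 and 3 of both genotypes, and in bipolar-like cells all but Cck with 100 or more UMIs and Vip without P19. The 2 settings without RPE replicates 2 and 3 were chosen after seeing the data.

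In bulk retina, 5990 genes passed at an adjusted p alone against 1946 with the fold, and with each library left out 1823 to 2023. With library totals, 82.1% of the DEGs were higher in KO, against 69.7% with TMM factors. Tac2 turned to 0.05 with library totals and 0.01 without rod marker counts, and Cck ran from −0.07 to 0.20 with libraries left out. With the replicate block, 1979 genes were DEGs in retina and 934 in RPE, and the pairing changed no call of a peptide gene (edgeR adjusted p = 0.00792 for Sst and 0.0156 for Npy). Within same-numbered pairs, Sst was higher and Npy, Tac1 and Vgf were lower in KO in all 4. The share of all genes with the same direction in every pair was not counted. By edgeR, Tac1 and Vgf did not pass (adjusted p = 0.108 and 0.306).

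In bulk RPE, 944 genes were DEGs, 1441 by DESeq2, 563 to 1677 with each library left out, and 203 without replicates 2 and 3 of both genotypes, where Npy was at 0.00. Without WT replicates 2 and 3, the log2 fold changes were 1.34 for Tac1, 1.27 for Tac2, 0.57 for Npy, 2.32 for Vip and 0.74 for Vgf. Cck ran from −0.10 to 0.05 with libraries left out. In the interaction, Sst was at 0.05 by DESeq2 and from −0.77 to 1.08 with libraries left out, and Cck from −0.18 to 0.09.

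In amacrine-like cells, 1 gene passed in the limma-trend fit. The count was 31 by edgeR, 3 with 100 or more UMIs, 10 without P19, 14 without P25, 12 without P30, 2 without the 5% of cells with the most UMIs, and 0 with no age term. By edgeR, Penk turned to 0.29 and Vgf to 0.08, and without P25 Vgf turned to 0.05. Without P30, Tac1 turned to −0.30, Tac2 to −0.33, Npy to 0.19, Penk to 0.54 and Vgf to 0.13. Without the deepest 5% of cells, Sst turned to −0.80 and Npy to 0.15.

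In bipolar-like cells, 5 genes passed. The count was 62 by edgeR, 3 with a prior count of 0.5, 8 with 100 or more UMIs, 33 without P19, 11 without P25, 30 without P30 and 0 with no age term. Without P19, Npy turned to −0.05 and Vgf to −0.01. Without P30, Tac1 turned to −0.26 and Tac2 to −0.15, and without the deepest 5% of cells Tac1 turned to −0.27 and Vgf to −0.75.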
